A study of Homo sapiens with 16 samples.

Results

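The insulin-like growth factor axis was followed in Sorafenib-resistant hepatocellular carcinoma (HCC) cells through 10 genes: the ligand IGF2, its imprinted neighbour H19, the receptors IGF1R, IGF2R and INSR, the receptor substrates IRS1 and IRS2, and the binding proteins IGFBP1, IGFBP2 and IGFBP3. These genes were chosen by name, with earlier results of these data known but no measured value in the rule, and were matched by gene ID to 10 of the 26258 IDs of the expression table. All 10 were among the 15019 genes tested, which reached at least 1 CPM (reads of a gene scaled to the library total) in at least 2 libraries. IGFBP2 passed this filter only through groups in which it was high. A difference between groups was therefore a condition of its being tested. The same held for some further genes below, such as IGFBP5 and PTPRC. IGFBP1 reached 1 CPM in libraries of both lines, but it rested on only 34 and 15 reads in the Hep3B parental libraries. RNA was measured in Huh7 and Hep3B cells, a pair of human HCC lines, as untreated parental cells, DMSO cells (labelled untreated as well), IR cells and CR cells. IR cells had become resistant under increasing Sorafenib and CR cells under a constantly high concentration, and both were labelled as treated with 7 µM Sorafenib, an oral kinase inhibitor. Each of the 8 groups had 2 libraries, 16 in all. Each resistant line is 1 selected population, and the labels do not say whether the 2 libraries of a group came from separate cultures, so that p-values measure the spread between these libraries, which may be technical. The resistant cells differed from the parental cells both in their selection and in the drug in the medium, and these cannot be told apart.

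IGF2 is a fetal growth factor that signals through IGF1R and through the insulin receptor INSR, and it is often re-expressed in liver cancer. Active receptors phosphorylate the adaptor proteins IRS1 and IRS2, which recruit PI3-kinase and start the AKT and mTOR cascade. IGF2R, the mannose 6-phosphate receptor, binds IGF2 without such signalling and carries it to lysosomes for degradation, while the IGFBP proteins hold IGFs in the medium and tune their access to receptors. IGF2 and H19, a noncoding RNA that is the host of miR-675, lie side by side on chromosome 11, share enhancers and are imprinted on opposite parental alleles. In hepatocytes insulin represses IRS2 and IGFBP1 through FOXO factors.

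The libraries held 46613302 to 76860251 reads in genes, so that 3 reads corresponded to 0.0390 to 0.0644 CPM. The hepatocyte and HCC marker list held 11 genes, of which 10 or 11 reached 1 CPM in at least 1 library of every group. Its summed level was 10760 to 36200 CPM in the 8 parental and DMSO libraries, 144 to 2848 CPM in the resistant Huh7 libraries and 1366 to 10380 CPM in the resistant Hep3B libraries. As compared to parental cells, 9 genes of this list fell in IR and 7 in CR cells of Huh7, and 3 fell and 1 rose in IR and 6 fell in CR cells of Hep3B. Of 7 fibroblast markers, THY1 stayed at or below 0.0569 CPM and DCN at or below 2.50 CPM, but 4 of the 5 tested ones (among them COL1A1, COL1A2 and COL3A1) rose and LUM fell in both resistant Huh7 lines. The summed level of the fibroblast list was 284.5 to 482 CPM in parental and DMSO, and 313 to 772 CPM in resistant Huh7 libraries, and 23.4 to 37.1 CPM against 33.2 to 87.05 CPM in Hep3B. The summed blood cell list (6 genes) was 10.6 to 107 CPM and came mostly from CD68 and LYZ, whereas PTPRC reached at most 1.32 CPM, and the 6 endothelial markers together reached at most 6.36 CPM. The part of these marker changes in the results below was not tested.

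A single library stood apart. In the second Huh7 DMSO library, 14 genes that were at 20 CPM or more in every Hep3B parental and DMSO library and under 0.05 CPM in both Huh7 parental libraries sat at a median of 0.891% of their Hep3B level, with a range of 0.141 to 1.70%. In the other 7 Huh7 libraries this median was at most 0.0546%. The summed level of 10 hypoxia-induced genes was 1215 CPM there and 428 CPM in the first Huh7 DMSO library, and it was 565 against 266.5 CPM between the second and the first Hep3B DMSO library. Replicates of Huh7 DMSO and Huh7-IR cells differed most, with an SD of the log2 difference over genes of 0.571 and 0.566, as compared to 0.236 to 0.31 in the other groups. Member results against or for Huh7 DMSO cells are given with and without the second library where it decides a call. In what follows a gene was called in limma where its adjusted p (Benjamini-Hochberg, over all genes tested) lay under 0.05 and its log2 fold change reached 0.58 in either direction, and all changes are on the log2(CPM + 1) scale. Against parental cells, the change of the median gene was 0.19 in IR and 0.07 in CR cells of Huh7, and 0.06 in IR and 0.11 in CR cells of Hep3B. After quantile normalization it was 0.003, -0.034, -0.015 and -0.004 in the same order. Of the genes called in these comparisons, 63.6%, 60.6%, 57.9% and 61.9% were higher, and 49.8%, 49.3%, 47.7% and 49.2% after quantile normalization. No called change of the 10 genes against parental cells turned its direction after quantile normalization or TMM scaling.

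IGF2 fell in both resistant Hep3B lines and rose in Huh7-IR cells, where the rise rested on the second library. IGF2 (gene ID 3481; hg19 chr11:2150342-2179621, minus strand, protein coding) was at 283 and 265 CPM in Huh7 parental, 359 and 822 CPM in Huh7 DMSO, 424 and 1210 CPM in Huh7-IR, and 273 and 307.5 CPM in Huh7-CR libraries. In Hep3B cells it was at 1333 and 1777 CPM in parental, 3689 and 4450 CPM in DMSO, 146 and 292 CPM in IR, and 108 and 85.3 CPM in CR libraries. All 4 resistant Hep3B libraries thus lay below all 4 parental and DMSO libraries of that line, whereas the Huh7-IR and DMSO libraries overlapped. IGF2 fell in Hep3B-IR cells, with a log2 fold change of -2.89 ± 0.47 (SE, n = 2 per group; limma adjusted p = 0.000618). In Hep3B-CR cells the fall was -3.99 ± 0.47 (limma adjusted p = 5.8e-05). The fall against the Hep3B DMSO libraries was -4.29 and -5.38, respectively. It rose in Huh7-IR cells (1.38 ± 0.47; limma adjusted p = 0.0235), and this call was lost against the DMSO libraries (0.40, limma adjusted p = 0.496, and 1.00, limma adjusted p = 0.120, against the first Huh7 DMSO library alone), after TMM scaling (1.19, limma adjusted p = 0.0517) and without the second Huh7-IR library (0.63, limma adjusted p = 0.260). The Huh7-IR call was made in 11 of 20 alternative fits. It was also lost with no filter, with the groups compared alone, after GC correction (1.00), and without either Huh7 parental library (1.43 and 1.34). In Huh7-CR cells IGF2 differed by 0.08 from parental cells (95% confidence interval -0.94 to 1.10). In these bulk samples, fewer cells that make a transcript and less of it per cell cannot be told apart.

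Reads of IGF2 were not unique to one annotated gene. The readthrough gene INS-IGF2, which runs from the insulin gene into the IGF2 exons, had 94.0 to 98.8% as many reads as IGF2 in the 16 libraries, and INS itself had none in any library, so that how much of IGF2 is readthrough RNA is uncertain. IGF2-AS, an antisense RNA of the locus, was at 4.78 and 5.11 CPM in Hep3B parental libraries and at 0.152 to 0.530 CPM in the 4 resistant ones. It fell in Hep3B-IR cells (-2.16 ± 0.31; limma adjusted p = 0.000266) and rose in Huh7-IR cells (2.01 ± 0.31; limma adjusted p = 0.000163). Whether the counting used strand is not given in the sources used here, so IGF2-AS and IGF2 reads may not be separable.

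**Figure D1:**
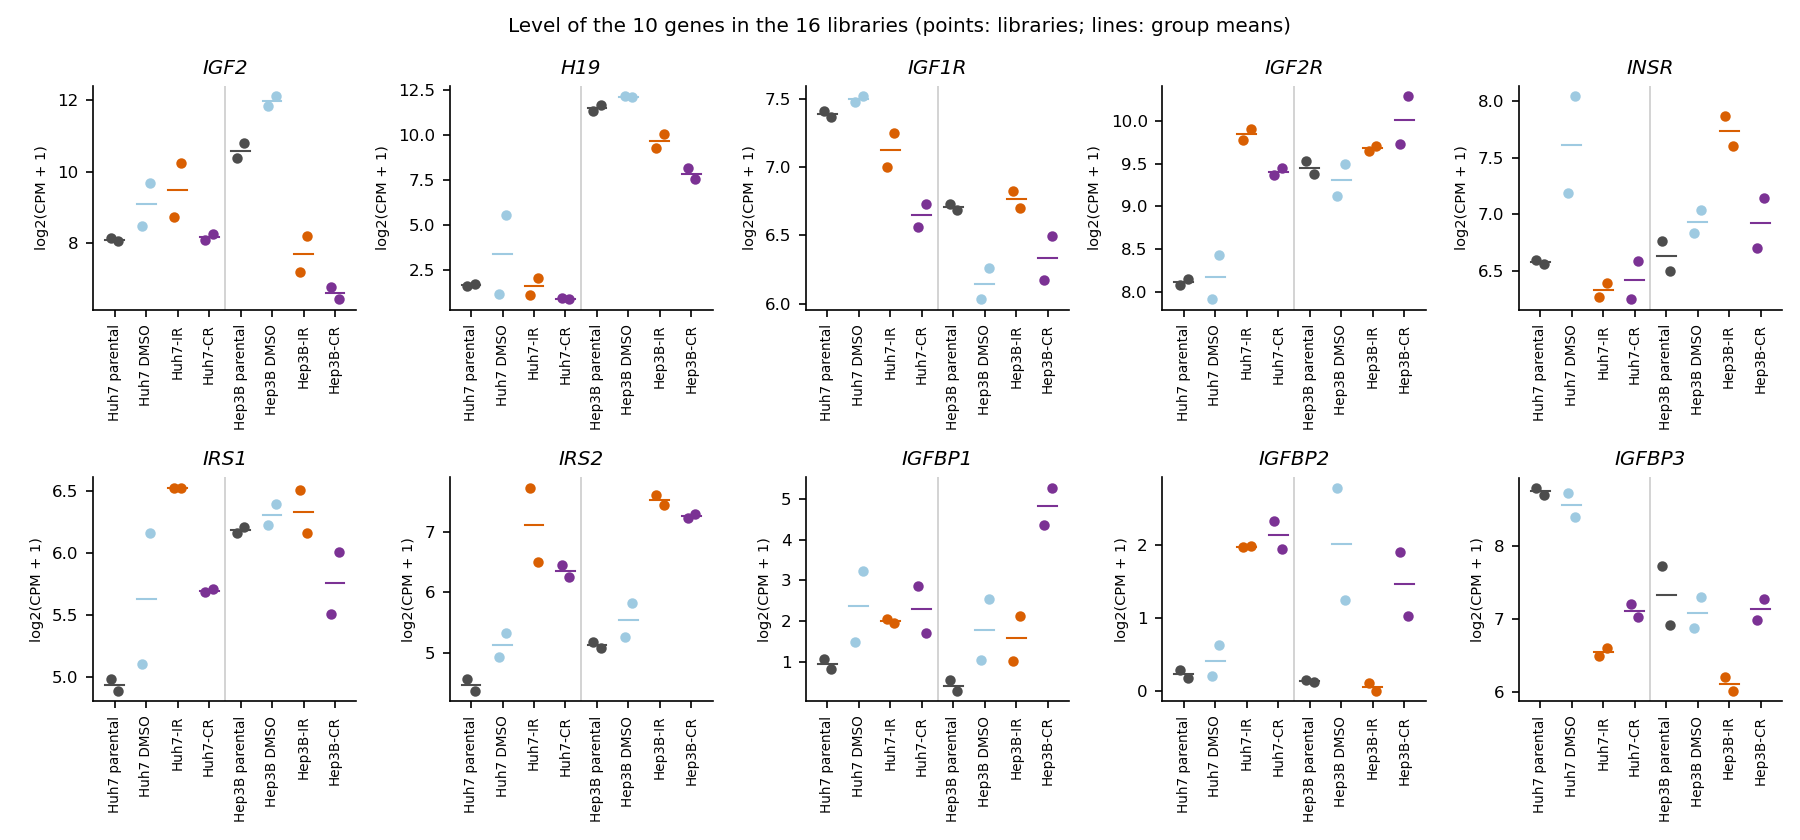
Level of the 10 genes, as log2(CPM + 1), in the 8 groups of Huh7 (left of the grey line) and Hep3B cells (right), with a point per library and a line at the mean of each group of 2; vertical axes do not start at 0. IRS2 lay higher in all resistant libraries of both lines than in the parental and DMSO libraries, while IGF2 and H19 lay lower in the 4 resistant Hep3B libraries.

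H19 fell with IGF2 in Hep3B cells and was nearly silent in Huh7 cells. H19 (gene ID 283120; hg19 chr11:2016396-2025782, minus strand, long noncoding RNA) was at 2647 and 3245 CPM in Hep3B parental, 4629 and 4487 CPM in Hep3B DMSO, 631 and 1083 CPM in Hep3B-IR, and 287 and 186 CPM in Hep3B-CR libraries. In Huh7 cells it was at 2.01 and 2.25 CPM in parental, 1.255 and 46.3 CPM in DMSO, 1.16 and 3.24 CPM in IR, and 0.958 and 0.825 CPM in CR libraries. The 46.3 CPM of the second Huh7 DMSO library was 1.235% of the mean level in Hep3B parental and DMSO libraries, within the range of the 14 Hep3B-enriched genes in that library, and 0.0220 to 0.0863% was found in the other Huh7 libraries. H19 fell in Hep3B-CR cells (-3.66 ± 0.94; limma adjusted p = 0.00906), although this call was lost without the second Hep3B parental library (-3.51, limma adjusted p = 0.0575) or the second Hep3B-CR library (-3.35, limma adjusted p = 0.0619). The difference in Hep3B-IR cells was -1.82 ± 0.94 and was not called (limma adjusted p = 0.166). In a fit without the second Huh7 DMSO library, chosen after seeing the data, the SE was 0.32 and H19 was called lower both in IR (limma adjusted p = 0.00101) and in CR cells of Hep3B (limma adjusted p = 9.91e-06). In Huh7-IR and Huh7-CR cells H19 differed by -0.05 (95% confidence interval -2.10 to 2.00) and -0.73 (-2.78 to 1.32) from parental cells.

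H19 is processed into miR-675, whose mature strands are shown because they are the small RNAs that the falling transcript encodes. Capitals mark the seed, bases 2 to 8, and the sequences are from RefSeq (GRCh38.p14, chr11:1996800-1996822 and chr11:1996768-1996787, minus strand).
hsa-miR-675-5p: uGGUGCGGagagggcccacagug
hsa-miR-675-3p: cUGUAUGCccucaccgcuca
The strands have different seeds. Mature miRNAs are not captured by poly(A) libraries, and the MIR675 row of the table reached at most 0.178 CPM, so that no level of miR-675 can be given. MIR483, the row of a miRNA within IGF2, reached at most 0.0274 CPM.

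Per kilobase of the canonical transcript, H19 exceeded IGF2 in Hep3B and not in Huh7 cells. The ratio of H19 to IGF2 in CPM per kb was 10.0 and 9.21 in Hep3B parental, 6.33 and 5.09 in DMSO, 21.8 and 18.7 in IR, and 13.4 and 11 in CR libraries. In Huh7 libraries it was 0.0135 to 0.0428, apart from 0.284 in the second DMSO library. The Hep3B ratio was therefore higher in all 4 resistant libraries than in all 4 parental and DMSO libraries, a description of these libraries for which no test was made. Hepatocyte marker genes moved with IGF2 and H19 in Hep3B cells. Albumin (ALB), a major plasma protein of hepatocytes, was at 12150 and 13350 CPM in parental, 1682 and 5526 CPM in IR, and 655 and 753 CPM in CR libraries. In Huh7 cells ALB was at 3710 and 3629 CPM in parental, 60.6 and 261 CPM in IR, and 1147 and 2305 CPM in CR libraries. The part of hepatocyte marker loss in the levels of IGF2 and H19 was not tested.

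**Figure D2:**
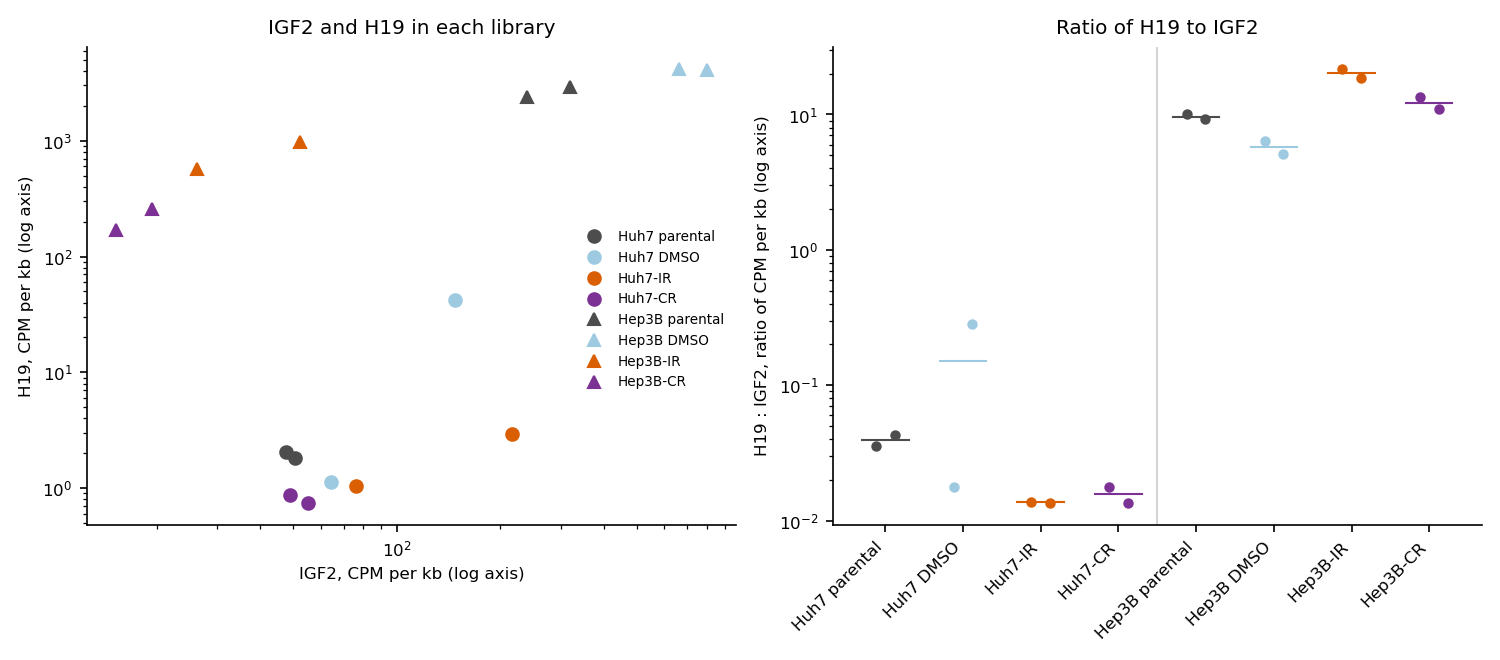
Left, H19 against IGF2 in CPM per kb (log axes), a symbol per library, circles for Huh7 and triangles for Hep3B; right, the ratio of H19 to IGF2 (log axis) in each library with lines at group means. Hep3B libraries had ratios of 5.09 to 21.8, and all but 1 Huh7 library had 0.0135 to 0.0428.

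Parental Huh7 and Hep3B cells already differed in 6 of the 10 genes, with 42.6% of all genes tested called in this comparison, 18.9% higher and 23.7% lower in Huh7. Huh7 parental cells had less H19 (-9.87 ± 0.94; limma adjusted p = 3.46e-06), IGF2 (-2.49 ± 0.47), IGF2R (-1.34 ± 0.20) and IRS1 (-1.25 ± 0.27) than Hep3B parental cells. They had more IGFBP3 (1.42 ± 0.23) and IGF1R (0.69 ± 0.14), and all 5 of these had limma adjusted p of 0.000170 to 0.00207. INSR differed by -0.05 (95% confidence interval -0.58 to 0.48), and IRS2, IGFBP1 and IGFBP2 were not called either.

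Among the receptors, IGF2R rose in resistant Huh7 cells, INSR rose in Hep3B-IR cells, and IGF1R rose in no comparison with parental cells. IGF2R (gene ID 3482; hg19 chr6:160390114-160534539, plus strand) was at 271 and 283 CPM in Huh7 parental, 240.0 and 345 CPM in DMSO, 877 and 959 CPM in IR, and 658 and 699 CPM in CR libraries. Its log2 fold changes were 1.72 ± 0.20 in Huh7-IR (limma adjusted p = 2.35e-05) and 1.29 ± 0.20 in Huh7-CR cells (limma adjusted p = 0.000370), and both were called in each of 20 alternative fits. In Hep3B cells, where it started higher, IGF2R was at 739.5 and 665 CPM in parental, 559 and 722 CPM in DMSO, 803 and 836 CPM in IR, and 849 and 1251 CPM in CR libraries. The resistant Hep3B libraries lay above the parental and DMSO libraries without overlap, but the differences of 0.22 ± 0.20 (95% confidence interval -0.22 to 0.67) and 0.56 ± 0.20 (0.11 to 1.00) did not reach a call. The second of these had a limma adjusted p of 0.0482 and missed the fold limit.

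The IGF2R promoter is shown because this gene had the most matches among the members to ACGTG, the core of the hypoxia response element. The sequence is from RefSeq (GRCh38.p14, chr6:159968832-159969131, plus strand), runs from 250 bases before to 50 bases after the gene start, and has each CACGTG in capitals. This palindrome holds ACGTG on both strands, so that the 3 copies gave 6 matches.
IGF2R: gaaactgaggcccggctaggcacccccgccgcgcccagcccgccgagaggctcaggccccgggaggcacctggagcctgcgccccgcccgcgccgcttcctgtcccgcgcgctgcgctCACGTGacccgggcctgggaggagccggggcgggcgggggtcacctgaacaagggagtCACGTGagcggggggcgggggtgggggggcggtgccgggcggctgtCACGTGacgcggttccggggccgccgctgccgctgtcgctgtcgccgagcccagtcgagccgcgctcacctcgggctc
ACGTG was present in 21.4% of 35116 promoters of this length, and a match is a description of the sequence only. GCGTG, searched as a core of the same element, had 0 matches here. It had 4 matches in the promoter of IGF1R, which also had 1 ACGTG, and 3 in that of IGFBP3. Both of these genes were lower in the resistant Huh7 libraries.

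IGF1R, the receptor tyrosine kinase for IGF1 and IGF2 (gene ID 3480; hg19 chr15:99191768-99507759, plus strand), was at 169.5 and 165 CPM in Huh7 parental, 178 and 183 CPM in DMSO, 127 and 151 CPM in IR, and 93.6 and 105 CPM in CR libraries. Every resistant Huh7 library was below every parental and DMSO library. The fall was called in Huh7-CR (-0.75 ± 0.14; limma adjusted p = 0.00112) but not in Huh7-IR cells (-0.27, 95% confidence interval -0.57 to 0.03). In Hep3B cells IGF1R was at 105 and 102 CPM in parental, 64.35 and 75.5 CPM in DMSO, 112 and 103 CPM in IR, and 71.2 and 89.2 CPM in CR libraries, with differences of 0.06 (-0.24 to 0.36) and -0.37 (-0.67 to -0.07) from parental cells. Neither was called, and against the lower DMSO libraries IGF1R was higher in Hep3B-IR cells (0.62, limma adjusted p = 0.00392).

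INSR, the insulin receptor (gene ID 3643; hg19 chr19:7112266-7294425, minus strand), was at 107 and 89.5 CPM in Hep3B parental, 113 and 130 CPM in DMSO, 232 and 193 CPM in IR, and 103 and 141 CPM in CR libraries. The Hep3B-IR libraries were the highest of this line. INSR rose there by 1.10 ± 0.24 (limma adjusted p = 0.00455), and not to a call in Hep3B-CR cells (0.29, 95% confidence interval -0.24 to 0.82). In Huh7 cells the DMSO libraries were the high ones, at 144 and 263 CPM, as compared to 95.7 and 93.4 CPM in parental, 76.1 and 83.1 CPM in IR, and 74.9 and 95.3 CPM in CR libraries. INSR differed by -0.25 (-0.78 to 0.29) and -0.16 (-0.69 to 0.37) from Huh7 parental cells and was called lower only against the DMSO libraries, by -1.28 and -1.20, and by -0.85 and -0.77 against the first Huh7 DMSO library alone (limma adjusted p = 0.00575 and 0.0150).

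The balance of the receptors, as a ratio of CPM per kb, was described without a test. IGF2R to IGF1R was 1.18 to 1.64 in the Huh7 parental and DMSO libraries and 5.52 to 6.12 in the resistant Huh7 libraries. In Hep3B libraries it was 5.68 to 8.32 in parental and DMSO, 6.22 and 7.05 in IR, and 10.4 and 12.2 in CR cells. Resistant Huh7 cells thus had a ratio of the size found in Hep3B parental cells. INSR to IGF1R was 0.711 to 1.17 in the parental and resistant Huh7 libraries, 1.05 and 1.86 in the Huh7 DMSO libraries, and 1.32 and 1.14 in Hep3B parental libraries as compared to 1.87 to 2.67 in all other Hep3B libraries.

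**Figure D3:**
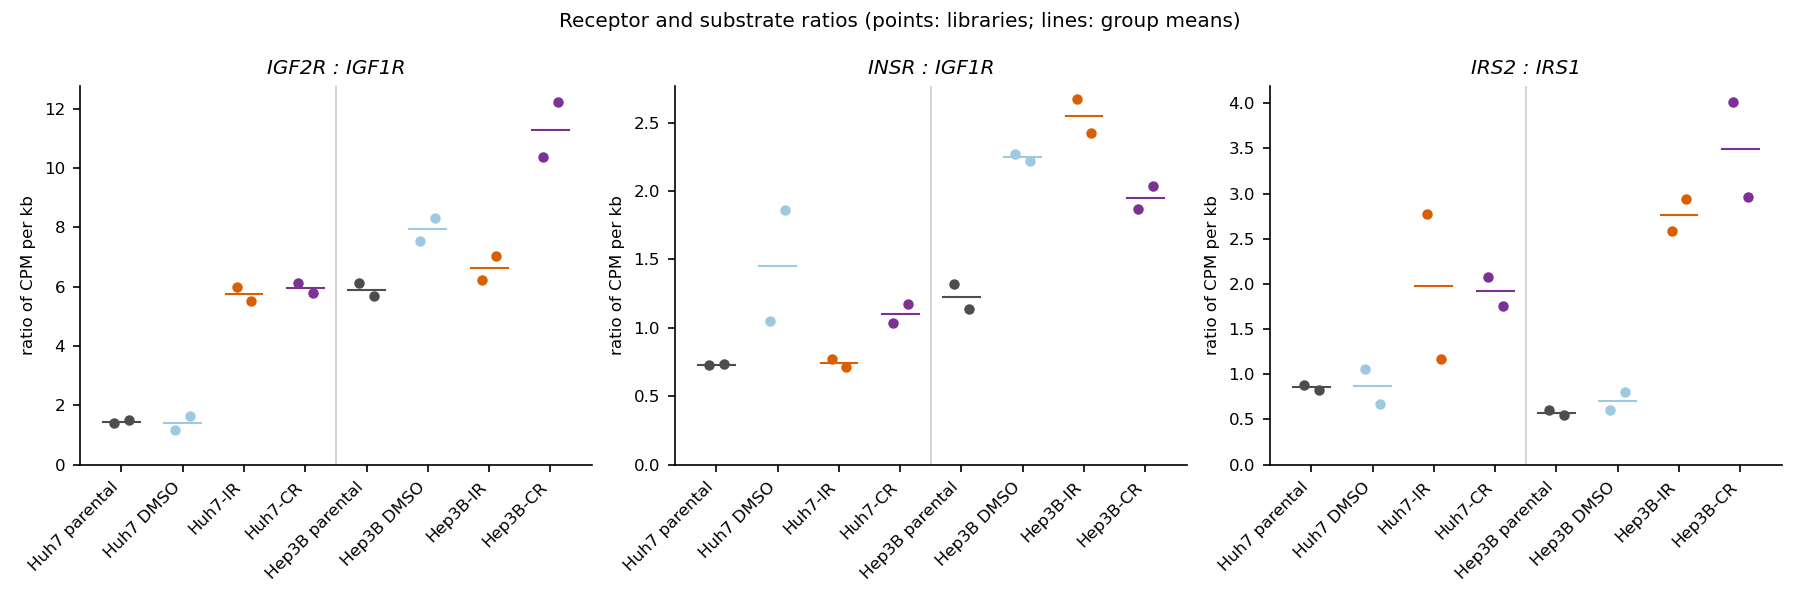
Ratios of CPM per kb for IGF2R to IGF1R, INSR to IGF1R and IRS2 to IRS1 in each library (points) with group means (lines), axes starting at 0. IGF2R to IGF1R was 5.52 to 6.12 in resistant against 1.18 to 1.64 in other Huh7 libraries, and IRS2 to IRS1 was above 1 in every resistant library.

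IRS2 was the only one of the 10 genes called in the same direction in all 4 resistant lines, upward, as were 5.28% of all genes tested. None was called downward in all 4, as were 2.88% of all genes. IRS2 (gene ID 8660; hg19 chr13:110405042-110438930, minus strand) was at 22.7 and 19.8 CPM in Huh7 parental, 29.4 and 39.4 CPM in DMSO, 210.4 and 89.0 CPM in IR, and 86.9 and 75.3 CPM in CR libraries. In Hep3B cells it was at 35.3 and 33.1 CPM in parental, 37.3 and 55.7 CPM in DMSO, 194 and 173 CPM in IR, and 149 and 156 CPM in CR libraries. No resistant library of either line overlapped with the parental and DMSO libraries. The log2 fold changes were 2.64 ± 0.31 in IR and 1.89 ± 0.31 in CR cells of Huh7, and 2.39 ± 0.31 in IR and 2.13 ± 0.31 in CR cells of Hep3B, with limma adjusted p between 2.23e-05 and 0.000487. These 4 calls were made in all 20 alternative fits of each Huh7 and all 19 of each Hep3B comparison, where the changes ranged from 1.22 to 3.25. The mean resistant change was 2.26 in both lines and their difference was 0.0043 ± 0.38 (95% confidence interval -0.82 to 0.83).

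IRS1, the other substrate, rose in Huh7-IR cells, less firmly in Huh7-CR cells, and not in Hep3B cells. IRS1 (gene ID 3667; hg19 chr2:227596028-227664536, minus strand) was at 30.7 and 28.55 CPM in Huh7 parental, 33.3 and 70.3 CPM in DMSO, 90.7 and 91.0 CPM in IR, and 50.2 and 51.25 CPM in CR libraries. Its change was 1.59 ± 0.27 in Huh7-IR (limma adjusted p = 0.000338) and 0.76 ± 0.27 in Huh7-CR cells (limma adjusted p = 0.0395). The Huh7-CR call was lost against the DMSO libraries (0.07, limma adjusted p = 0.870), with a difference of 0.59 (limma adjusted p = 0.0366) from the first Huh7 DMSO library alone. The Huh7-CR call was made in 11 of 20 alternative fits. It was also lost with edgeR, with no filter, after quantile normalization and after TMM scaling (0.66, limma adjusted p = 0.0619 for TMM). Leaving out any of the 4 Huh7 parental and Huh7-CR libraries lost it as well (0.71 to 0.81). The second Huh7 DMSO library lay above both Huh7-CR libraries. In Hep3B cells IRS1 was at 70.4 and 72.8 CPM in parental, 73.6 and 82.9 CPM in DMSO, 89.6 and 70.5 CPM in IR, and 44.3 and 63.2 CPM in CR libraries, with differences of 0.15 (95% confidence interval -0.44 to 0.73) and -0.43 (-1.01 to 0.16). Per kb, IRS2 to IRS1 was 0.544 to 1.06 in the 8 parental and DMSO libraries and 1.17 to 4.02 in the 8 resistant libraries.

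The promoters of the substrates are shown because IRS2 rose in all resistant lines and IRS1 in Huh7 cells only. Both are from RefSeq (GRCh38.p14; IRS1 chr2:226799771-226800070 and IRS2 chr13:109786534-109786833, minus strand) and read 5′ to 3′ along the gene. Capitals in IRS1 mark GCGTG and CACGTG, which hold the hypoxia response element core, and capitals in IRS2 mark TGTTTTG, the insulin response element letters.
IRS1: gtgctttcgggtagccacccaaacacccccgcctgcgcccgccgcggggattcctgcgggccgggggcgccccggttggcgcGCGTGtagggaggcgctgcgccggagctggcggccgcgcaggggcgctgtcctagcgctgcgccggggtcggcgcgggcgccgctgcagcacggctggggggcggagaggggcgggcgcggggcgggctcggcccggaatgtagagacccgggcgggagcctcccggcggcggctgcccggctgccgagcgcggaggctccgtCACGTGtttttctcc
IRS2: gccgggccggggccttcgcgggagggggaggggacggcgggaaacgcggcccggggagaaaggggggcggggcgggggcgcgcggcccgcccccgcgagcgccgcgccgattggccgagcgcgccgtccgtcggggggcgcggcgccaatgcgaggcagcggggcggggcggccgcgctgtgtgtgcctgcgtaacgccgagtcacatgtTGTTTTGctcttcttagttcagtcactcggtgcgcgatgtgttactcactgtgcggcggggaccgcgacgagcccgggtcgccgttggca
IRS2 had 1 TGTTTTG, found in 4.92% of all promoters on either strand, and neither ACGTG nor GCGTG. IRS1 had ACGTG on both strands of 1 CACGTG and 1 GCGTG, the latter found in 36.5% of all promoters. TGTTTAC, a forkhead motif found in 3.42% of promoters, was in none of the promoters of the 8 members with an entry. No matches to any of the 4 motifs were found for H19 and INSR, and IGF2 and IGFBP1 had no entry.

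The binding proteins moved in different directions. IGFBP3, the main IGF carrier of serum (gene ID 3486; hg19 chr7:45951844-45961473, minus strand), was at 445 and 416 CPM in Huh7 parental, 423 and 336 CPM in DMSO, 89.1 and 96.3 CPM in IR, and 146 and 129.5 CPM in CR libraries. The resistant Huh7 libraries lay below the others without overlap, and the log2 fold change of IGFBP3 was -2.20 ± 0.23 in IR (limma adjusted p = 9.78e-06) and -1.64 ± 0.23 in CR cells (limma adjusted p = 0.000163). In Hep3B cells it was at 211.5 and 121 CPM in parental, 116 and 156 CPM in DMSO, 72.8 and 63.75 CPM in IR, and 126 and 154 CPM in CR libraries. It fell in Hep3B-IR (-1.22 ± 0.23; limma adjusted p = 0.00177) and differed by -0.19 in Hep3B-CR cells (95% confidence interval -0.70 to 0.31).

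IGFBP1, a liver-derived binding protein that insulin represses (gene ID 3484; hg19 chr7:45927959-45933259, plus strand), was at 0.458 and 0.211 CPM in Hep3B parental, 1.05 and 4.77 CPM in DMSO, 1.02 and 3.37 CPM in IR, and 19.45 and 37.8 CPM in CR libraries. The Hep3B-CR libraries were the highest of all 16, and IGFBP1 rose there by 4.41 ± 0.62 (limma adjusted p = 0.000200). In Huh7 cells it was at 1.09 and 0.763 CPM in parental, 1.81 and 8.32 CPM in DMSO, 3.10 and 2.85 CPM in IR, and 6.275 and 2.25 CPM in CR libraries. The changes in Huh7-IR (1.05, 95% confidence interval -0.29 to 2.39), Huh7-CR (1.34, -0.0025 to 2.68) and Hep3B-IR cells (1.16, -0.18 to 2.50) were not called. The second DMSO library was above the first in both lines, as was the summed level of hypoxia-induced genes. In Hep3B-CR cells, where IGFBP1 was highest, that sum was 596 and 607 CPM, as compared to 604 and 613 CPM in Hep3B-IR cells and 263 and 254 CPM in parental cells. Within that sum VEGFA was at 276 and 225.5 CPM in Hep3B-CR, 368 and 284 CPM in Hep3B-IR, and 71.3 and 57.35 CPM in parental libraries. It was the only 1 of the 10 hypoxia-induced genes called in either resistant Hep3B line. The part of hypoxia-induced genes in the IGFBP1 levels was not tested.

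IGFBP2, a binding protein of fetal tissue and many tumours (gene ID 3485; hg19 chr2:217497551-217529159, plus strand), was rare everywhere. It was at 0.218 and 0.134 CPM in Huh7 parental, 0.152 and 0.546 CPM in DMSO, 2.93 and 2.94 CPM in IR, and 4.03 and 2.83 CPM in CR libraries, and it rose by 1.74 ± 0.40 in Huh7-IR (limma adjusted p = 0.00257) and 1.90 ± 0.40 in Huh7-CR cells (limma adjusted p = 0.00244). The resistant and other Huh7 libraries did not overlap, and the parental values rested on 15 and 10 reads. In Hep3B cells it was at 0.108 and 0.0844 CPM in parental, 5.88 and 1.37 CPM in DMSO, 0.0803 and 0 CPM in IR, and 2.74 and 1.03 CPM in CR libraries. The CR libraries overlapped with the DMSO libraries, and the rise of 1.33 ± 0.40 in Hep3B-CR cells (limma adjusted p = 0.0195) turned to -0.55 (limma adjusted p = 0.298) when the DMSO libraries were the reference. The rise in Hep3B-CR cells was called in 13 of 19 alternative fits. It was also not called with a pseudocount of 4 CPM (0.51), after GC correction, without the first Hep3B-CR library (0.89) or without either Hep3B parental library.

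**Figure D4:**
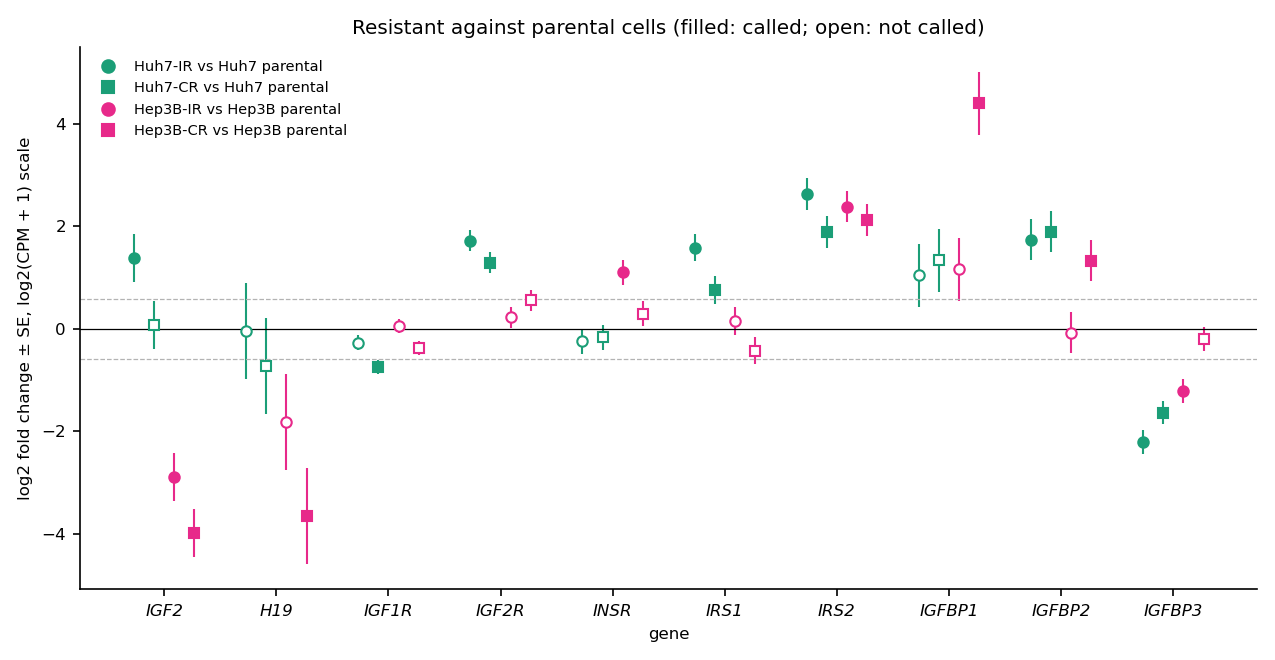
Log2 fold change (log2(CPM + 1) scale) of the 10 genes in each resistant line against parental cells of its line, with SE bars, filled symbols for calls, open symbols for no call, and dashed lines at the fold limit of 0.58. IRS2 was called higher in all 4 comparisons, and IGF2 was called higher in Huh7-IR (1.38) and lower in Hep3B-IR and Hep3B-CR cells (-2.89 and -3.99).

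Counted over the 10 genes, 5 rose and 1 fell in Huh7-IR cells, while of all genes tested 48.8% were called, 31.1% higher and 17.8% lower. In Huh7-CR cells 4 rose and 2 fell, while 34.5% of all genes were called, 20.9% higher and 13.6% lower. In Hep3B-IR cells 2 rose and 2 fell, while 27.1% were called, 15.7% higher and 11.4% lower, and in Hep3B-CR cells 3 rose and 2 fell, while 32.2% were called, 20% higher and 12.3% lower. The shares of the 10 genes called were thus 60%, 60%, 40% and 50%. The median log2 fold change of the 10 genes was 1.22, 0.42, 0.10 and 0.05 in this order, beside 0.19, 0.07, 0.06 and 0.11 for all genes. The IR and CR comparisons of a line share their parental libraries and are not independent. IGFBP2 is counted in the calls of Huh7-IR, Huh7-CR and Hep3B-CR cells, and IGFBP1 in those of Hep3B-CR cells. For IGFBP2, here and in the next count, a difference between groups was a condition of being tested. Without overlap between the 4 resistant and the 4 other libraries, IGF2R, IRS2 and IGFBP2 were higher in Huh7 (25.0% of all genes) and IGF1R and IGFBP3 lower (16.9%), while IGF2R and IRS2 were higher in Hep3B (25.2%) and IGF2 and H19 lower (16.5%).

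The resistant change, as the mean over IR and CR, differed between the lines in 5 of the 10 genes, with 29.4% of all genes tested called in this contrast, 16.3% with the higher change in Huh7 and 13.1% with the higher change in Hep3B. IGF2 changed by 0.73 in Huh7 and by -3.44 in Hep3B cells, a difference of 4.17 ± 0.57 (limma adjusted p = 0.000231). IGF2R changed by 1.51 and 0.39, a difference of 1.116 ± 0.25 (limma adjusted p = 0.00530), and IRS1 by 1.17 and -0.14, a difference of 1.31 ± 0.33 (limma adjusted p = 0.00988). INSR changed by -0.20 and 0.70, a difference of -0.90 ± 0.30 (limma adjusted p = 0.0372), which was not called in 9 of the 28 alternative fits. IGFBP3 changed by -1.92 and -0.71, a difference of -1.21 ± 0.28 (limma adjusted p = 0.00669). For H19 the difference was 2.36 ± 1.15 (limma adjusted p = 0.143), and it was called in the fit without the second Huh7 DMSO library (limma adjusted p = 0.000811).

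The ways of selecting resistant cells were compared within each line. Between Hep3B-IR and Hep3B-CR cells 4 of the 10 genes were called, against 11.7% of all genes tested, 5.33% higher and 6.41% lower in IR cells. INSR was higher in IR cells (0.81 ± 0.24; limma adjusted p = 0.0462). IGFBP1 (-3.25 ± 0.62; limma adjusted p = 0.00538), IGFBP2 (-1.41 ± 0.40; limma adjusted p = 0.0365) and IGFBP3 (-1.02 ± 0.23; limma adjusted p = 0.0135) were lower. For IGFBP2, though not for IGFBP1, a difference between groups was a condition of being tested. In fits that left out 1 library of these groups, only 1 or 2 of the 10 genes were called. Between Huh7-IR and Huh7-CR cells limma called 0 of the 10 genes, against 13.7% of all genes. At an unadjusted p under 0.05, 3 passed (IGF2, IRS1 and IRS2, against 21.0% of all genes). DESeq2 called 2 and edgeR 0, against 16.4% and 11.5% of all genes. The differences in IGF2 (1.30, 95% confidence interval 0.28 to 2.32) and IRS1 (0.83, 0.24 to 1.41) had limma adjusted p of 0.0759 and 0.0548.

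DMSO cells differed from parental cells in 1 of the 10 genes in each line. INSR was higher in Huh7 DMSO cells (1.03 ± 0.24; limma adjusted p = 0.0349), where 4.83% of all genes were called and 3.46% were higher, and without the second Huh7 DMSO library the difference was 0.60 (limma adjusted p = 0.286). IGFBP2 was higher in Hep3B DMSO cells (1.88 ± 0.40; limma adjusted p = 0.0376), where 1.58% of all genes were called and 1.07% were higher, and without the first Hep3B DMSO library it was 1.11 (limma adjusted p = 0.190). For IGFBP2 a difference between groups was a condition of being tested. IGF2 was higher by 0.99 (95% confidence interval -0.03 to 2.00) in Huh7 DMSO and by 1.40 (0.38 to 2.41) in Hep3B DMSO cells and was not called in either. At an unadjusted p under 0.05 and the same fold limit, 3 of the 10 genes passed in each line, against 14.5% of all genes in Huh7 and 8.06% in Hep3B.

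Other genes of the axis were described over lists, in the order Huh7-IR, Huh7-CR, then Hep3B-IR, Hep3B-CR. Each list gene said to rise or fall had a limma adjusted p between 4.18e-09 and 0.0457. Changes were given only for the 2 called genes of a list with the largest change per comparison. A gene may thus also have changed in lines for which it is not named. Of 11 further ligands, binding proteins and proteases, 8 were tested, and 6, 6, 3 and 4 rose while 0 fell, with a median change of 2.02, 1.66, 0.42 and 0.98. Of all genes, 31.1%, 20.9%, 15.7% and 20% rose, with medians of 0.19, 0.07, 0.06 and 0.11. IGFBP5 was at 0.393 and 0.188 CPM in Huh7 parental and 31.0 to 94.9 CPM in resistant Huh7 libraries (4.85 ± 0.22 in IR and 6.01 ± 0.22 in CR cells), and it was at most 0.0781 CPM in Hep3B libraries. IGFBP7, a secreted relative with low affinity for IGFs, was at 43.7 and 20.2 CPM in Hep3B parental and 446 to 1020 CPM in resistant Hep3B libraries (4.88 ± 0.53 in IR and 4.27 ± 0.53 in CR cells), and at 0.0785 to 0.172 CPM in resistant Huh7 libraries. STC2, an inhibitor of the IGFBP protease PAPPA, rose in all 4 resistant lines, by 5.41 ± 0.56, 4.77 ± 0.56, 2.01 ± 0.56 and 2.60 ± 0.56. PAPPA itself was at 24.9 and 23.0 CPM in Huh7 parental, 9.49 and 9.65 CPM in Huh7 DMSO and 90.45 to 98.2 CPM in resistant Huh7 libraries, and at most 0.45 CPM in Hep3B libraries. IGF1, the other ligand of IGF1R, was at most 2.89 CPM in any library.

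Regulators of IGF2 expression were counted as a second list, with 8 of 9 genes tested. In Huh7-IR 4 rose and 2 fell, in Huh7-CR 3 rose, in Hep3B-IR 1 rose and 2 fell, and in Hep3B-CR 3 fell, that is 75.0%, 37.5%, 37.5% and 37.5% called against 48.8%, 34.5%, 27.1% and 32.2% of all genes. PLAG1, a zinc finger activator of IGF2 promoters, was at 2.46 and 2.52 CPM in Huh7 parental and at 19.03 to 30.3 CPM in resistant Huh7 libraries, a change of 2.81 ± 0.26 in IR and 2.90 ± 0.26 in CR cells. HMGA2, a chromatin protein of fetal cells, rose by 2.11 ± 0.23 and 1.81 ± 0.23 in the same cells. PLAG1 was at 9.02 and 7.67 CPM in Hep3B parental and 10.1 and 11.8 CPM in Hep3B DMSO libraries. It was at 16.3 and 17.3 CPM in Hep3B-IR, where IGF2 fell, and at 13.4 and 11.6 CPM in Hep3B-CR libraries. In resistant Hep3B cells the pair of calls with the largest size was downward. LIN28B, a fetal RNA-binding protein, went from 172 and 199 CPM in Hep3B parental to 51.4 to 59.7 CPM in resistant libraries (-1.72 ± 0.19 in IR and -1.80 ± 0.19 in CR cells), and IGF2BP1, which binds IGF2 mRNA, from 359 and 425 CPM to 198 to 226 CPM (-0.97 ± 0.20 and -0.85 ± 0.20). In Huh7-IR libraries LIN28B was at 187 and 247 CPM as compared to 398 and 465 CPM in Huh7 parental libraries, and IGF2BP1 at 135 and 243 CPM as compared to 364 and 376 CPM. The part of these regulators in the level of IGF2 was not tested.

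Neighbours of IGF2 and H19 on the short arm of chromosome 11 were higher in 6, 1, 0 and 3 and lower in 1, 0, 2 and 3 of 9 tested cases, that is 77.8%, 11.1%, 22.2% and 66.7% called against 48.8%, 34.5%, 27.1% and 32.2% of all genes. These counts hold INS-IGF2, whose reads are those of IGF2. CDKN1C, a cell cycle inhibitor imprinted in the same cluster, was chosen after its values were seen and was at 19.4 to 57.15 CPM in Hep3B and 0.107 to 3.66 CPM in Huh7 libraries. KCNQ1OT1, the noncoding RNA of the adjacent imprinted domain, was at 66.7 and 40.8 CPM in Hep3B parental and 13.0 and 6.26 CPM in Hep3B-CR libraries (-2.40 ± 0.39; limma adjusted p = 0.000492). PHLDA2, a placental growth inhibitor of that domain, rose in Huh7-CR cells (0.94 ± 0.22). It was at 1.25 and 0.455 CPM in Huh7 parental and 2.885 and 4.33 CPM in Huh7-IR libraries. In Hep3B cells PHLDA2 was at 1.52 and 2.05 CPM in parental and 6.28 and 5.96 CPM in CR libraries. SLC67A1, known before as SLC22A18, rose in Huh7-IR (1.49 ± 0.30) and Huh7 DMSO cells (1.22 ± 0.30; limma adjusted p = 0.0392). In Hep3B cells it was at 1.84 and 1.24 CPM in parental and 6.65 and 7.39 CPM in CR libraries.

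Adaptors and inhibitors at the receptor were higher in 6, 4, 3 and 2 and lower in 2, 1, 1 and 0 of 14 tested cases, that is 57.1%, 35.7%, 28.6% and 14.3% called against 48.8%, 34.5%, 27.1% and 32.2% of all genes. SOCS2, a brake on growth hormone signalling, was at 3.39 and 1.58 CPM in Huh7 parental and 25.6 to 37.9 CPM in resistant Huh7 libraries (3.26 ± 0.40 in IR and 3.12 ± 0.40 in CR cells), and SOCS3, which blocks cytokine and insulin receptors, rose by 2.38 ± 0.40, 2.29 ± 0.40, 1.13 ± 0.40 and 1.41 ± 0.40 in the 4 resistant lines. GRB10, an adaptor that inhibits INSR and IGF1R, rose in Hep3B-IR (1.06 ± 0.21) and Hep3B-CR cells (1.47 ± 0.21), from 101 and 115 CPM to 191 to 318 CPM. In Huh7 cells GRB10 was at 127 and 115 CPM in parental and 344 to 463 CPM in resistant libraries.

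In the PI3K, AKT and mTOR arm, 9, 6, 5 and 7 genes rose and 3, 2, 3 and 2 fell of 30 tested, that is 40.0%, 26.7%, 26.7% and 30.0% called and at or below the background in all 4 comparisons. TRIB3, a pseudokinase that binds AKT and is induced by stress, was at 51.4 and 78.2 CPM in Hep3B parental and 513 to 670.5 CPM in resistant Hep3B libraries, with changes of 2.49 ± 0.44, 1.67 ± 0.44, 3.04 ± 0.44 and 3.36 ± 0.44 in the same order of lines. PIK3CD, a catalytic PI3-kinase subunit, rose in Huh7-IR (1.99 ± 0.33) and Hep3B-CR cells (2.80 ± 0.33). It was at 5.91 and 3.08 CPM in Huh7 parental and 13.1 and 9.57 CPM in Huh7-CR libraries. In Hep3B cells PIK3CD was at 3.23 and 1.90 CPM in parental and 14.7 and 10.03 CPM in IR libraries. PHLPP2, a phosphatase of AKT, fell in Huh7-CR cells (-1.44 ± 0.19), where it was at 23.4 and 22.5 CPM, with 20.5 and 19.8 CPM in Huh7-IR and 63.1 and 64.5 CPM in parental libraries. DEPTOR, an inhibitor of mTOR, rose in Hep3B-IR cells (2.62 ± 0.54). It was at 2.03 and 1.90 CPM in Hep3B parental, 2.16 and 9.72 CPM in DMSO, and 5.495 and 11.5 CPM in CR libraries.

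FOXO factors and genes that insulin represses through them were higher in 4, 5, 2 and 2 and lower in 0, 0, 2 and 2 of 10 tested cases, that is 40.0%, 50%, 40.0% and 40.0% called against 48.8%, 34.5%, 27.1% and 32.2% of all genes. CCNG2, a cyclin that FOXO factors induce, rose in Huh7-IR (2.11 ± 0.37) and Huh7-CR cells (2.03 ± 0.37), and it was at 13.6 and 35.25 CPM in Huh7 DMSO as compared to 4.875 and 6.54 CPM in Huh7 parental libraries. FOXO3 rose in Huh7-IR cells (1.81 ± 0.25). It was at 35.35 and 39.1 CPM in Huh7 parental, 155 and 114 CPM in Huh7-IR, and 92.0 and 85.3 CPM in Huh7-CR libraries. In Hep3B cells FOXO3 was at 44.1 and 48.6 CPM in parental and 79.8 to 98.1 CPM in resistant libraries. PPARGC1A, a coactivator of gluconeogenesis, rose in CR cells of Huh7 (1.84 ± 0.42) and in IR (1.72 ± 0.42) and CR cells of Hep3B (2.14 ± 0.42). SESN3, a FOXO-induced regulator of mTOR, fell in Hep3B-IR (-2.32 ± 0.34) and Hep3B-CR cells (-3.21 ± 0.34), from 66.45 and 113 CPM to 7.49 to 17.7 CPM, so the list had no common direction in Hep3B cells. The gluconeogenic gene PCK1, also chosen after its values were seen, was at most 2.04 CPM, in the second Huh7 DMSO library, and at most 0.0262 CPM elsewhere.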

How the data were processed

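RNA of 16 poly(A) libraries, 2 for each of 8 groups of Huh7 and Hep3B cells, was analysed from a single table of CPM values. Per the paper's methods, the authors mapped single-end reads to hg19 with STAR, kept unique hits, and counted them over exons of RefSeq mRNAs with QuasR. The deposited table gives CPM per gene ID, which by its values are such reads scaled to the library total. Whether strand was used is not given in the sources used here. Reads shared by overlapping genes, as IGF2 and INS-IGF2, cannot be assigned by such counts. The labels and methods differ in the kit, the sequencer and the number of replicates, of which 2 per group were used. All values were whole multiples of 1 read within 0.05 reads, and the recovered totals were 46613302 to 76860251 reads. The 3-read floor covers counting error only, and the 95% intervals are those of limma, from the spread between libraries.

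Log2(CPM + 1) values of the 15019 genes that reached 1 CPM in 2 or more libraries were fitted in limma 3.58.1 (R 4.3.3, trended variance, 1 model of 8 groups), with two-sided p adjusted over all genes. The table had 26258 gene IDs, of which 26111 matched a symbol. Levels between genes were compared per kb of the canonical GENCODE transcript. Alternatives were edgeR 4.0.16 and DESeq2 1.42.0 on recovered reads, other scalings, pseudocounts and filters, groups compared alone, DMSO libraries as reference (also with the first Huh7 DMSO library alone, added after seeing the data), a GC correction, the replicate number as a block, and each library left out. The members and lists were chosen with earlier results of these data known. The 10 members were named in every comparison, and of each list the 2 called genes with the largest change per comparison with parental cells. Promoters are 250 bases before to 50 after the gene start, from RefSeq (8 of 10 members matched), and motifs were searched on both strands. The limma step was tested on simulated counts for the comparison of Huh7-IR with Huh7 parental cells only. The other steps were not tested in this way.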

Additional observations from a re-analysis of the deposited data

Results flagged for a closer look

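In 5 of the 10 genes, the resistant change (mean of IR and CR against parental cells, log2 scale) differed between Huh7 and Hep3B cells by the limma contrast of the difference itself, with 29.4% of all genes called in it. For IGF2 the difference was 4.17. The Huh7 side of it, a mean of 0.73, came from IR cells (1.38), whose call was lost without the second Huh7-IR library (0.63), as CR cells changed by 0.08. Against DMSO libraries the Huh7 changes were 0.40 and -0.90, neither of them called, and the difference was 4.58. For IGF2R it was 1.116, for IRS1 1.31, for INSR -0.90 and for IGFBP3 -1.21, where a negative value means the lower change in Huh7. IGF2, IGF2R and IGFBP3 were called in 28 of 28 alternative fits, IRS1 in 27 and INSR in 19. The difference for IRS1 fell to 0.74 (limma adjusted p = 0.103) against DMSO libraries and was 1.27 with the first Huh7 DMSO library alone. The libraries of both lines carried the same treatment labels, and why the lines differed was not tested.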

How the results depend on the processing

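Of 1940 values under alternatives, 65 were no longer called, 61 were newly called and 1 reversed. The other 1813 stayed on their side of the threshold, and 51 of these, called under neither setting, changed sign. The reversal was IGFBP2 in Hep3B-CR cells with DMSO libraries as reference (-0.55, limma adjusted p = 0.298). The number of the 10 genes called was 1 in each DMSO comparison. In Huh7 it became 3 with DESeq2 and 3 at unadjusted p, against 12.2% and 14.5% of all genes. It became 0 with no filter and 0 with the groups compared alone, against 1.64% and 0% of all genes. In Hep3B it became 3 with DESeq2 and 3 at unadjusted p, against 3.62% and 8.06% of all genes. It became 0 with a pseudocount of 4 CPM, 0 with no filter and 0 with the groups compared alone. The shares of all genes were then 1.51%, 0.806% and 0.0133%. Leaving out 1 library gave 0 to 5 calls in Huh7 DMSO, 0 to 1 in Hep3B DMSO, 3 to 5 in Hep3B-CR, 0 to 2 between Huh7-IR and Huh7-CR (main 0), and 1 to 2 between Hep3B-IR and Hep3B-CR cells (main 4). Between Huh7-IR and Huh7-CR cells DESeq2 called 2 and unadjusted p 3, against 16.4% and 21% of all genes. Between Hep3B-IR and Hep3B-CR cells no filter left 2, against 5.74% of all genes. The difference between the lines had 8 calls with the groups compared alone (main 5), against 31.3% of all genes (main 29.4%). The cause of these changes was not tested.

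Same-numbered libraries deviated together with a correlation of -0.22 to 0.439 over 28 pairs of groups (median 0.073, over 0.1 in 13). These mixed values cannot settle whether same-numbered libraries share a batch. With the replicate block, 1 gene (IGF2) was called between Huh7-IR and Huh7-CR cells. Over all genes, 726 calls in Huh7 DMSO became 1833 with DESeq2, 382 with no filter, 0 with the groups alone, 2171 at unadjusted p, 1113 with the replicate block and GC correction, and 148 to 3564 without 1 library. In Hep3B DMSO 237 became 77 with edgeR, 544 with DESeq2, 2 alone, 1210 at unadjusted p and 46 to 122 without 1 library. Between Huh7-IR and Huh7-CR cells 2051 became 0 alone, 3148 at unadjusted p and as few as 479 without 1 library, and between Hep3B-IR and Hep3B-CR cells 1764 became 2671 and 665 to 1151. With 2 libraries per group, differences such as that of H19 in Hep3B-IR cells rest on 1 shared spread, and IGFBP2 rested on 0 to 15 reads in parental and Hep3B-IR libraries.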

Other observations

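The genes whose levels followed each member most closely over the 16 libraries are given by Pearson's r of log2(CPM + 1), as a description. The libraries share their line, group and scaling, so that r reflects these as well. IGF2 was closest to INS-IGF2 (1), which holds the same reads, IGF2-AS (0.943) and RXRA (0.922), and H19 to FBN3 (0.984), AK3 (0.98) and PAQR8 (0.98). IGF1R was closest to PIK3CB (0.898), a catalytic PI3-kinase subunit, MAPRE2 (0.898) and NPM2 (0.888), and IGF2R to ABR (0.974), CELSR1 (0.972) and ZFAND3 (0.969). INSR followed MYLK3 (0.923), SERPINB1 (0.916) and MYO18A (0.902). IRS1 followed SLC6A16 (0.954), SETD5 (0.88) and DLG4 (0.879), and IRS2 followed LURAP1L (0.963), KDSR (0.96) and PRKAB1 (0.958), a subunit of the energy sensor AMPK. IGFBP1 was closest to a gene with ID 200058 and no matched symbol (0.899), BEST1 (0.849) and ANGPTL4 (0.84), IGFBP2 to LIX1L (0.844), L1CAM (0.834) and PTCH1 (0.826), and IGFBP3 to CRELD2 (0.943), CTXND1 (0.927) and FAM86C2P (0.924), a member of a multicopy family whose reads are uncertain.

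Hypoxia-induced genes were counted as a list of 10. In Huh7-IR 3 rose and 1 fell, in Huh7-CR 3 rose, and in each of the resistant Hep3B lines 1 rose, that is 40.0%, 30.0%, 10.0% and 10.0% called against 48.8%, 34.5%, 27.1% and 32.2% of all genes. VEGFA rose in Hep3B-IR (2.32 ± 0.33; limma adjusted p = 0.000274) and Hep3B-CR cells (1.95 ± 0.33; limma adjusted p = 0.000737). Of 5 tested fibroblast markers, 4, 4, 1 and 1 rose and 1, 1, 1 and 0 fell in the same order of lines, with a median change of 2.97, 4.21, 0.03 and -0.02. The 1 that rose in both resistant Hep3B lines was COL1A1, a fibrillar collagen (4.69 ± 0.55 in IR and 5.70 ± 0.55 in CR cells), which also went from 1.02 and 0.563 CPM in Huh7 parental to 31.1 to 60.7 CPM in resistant Huh7 libraries. PDGFRB, a receptor of mesenchymal cells, fell in Hep3B-IR cells (-1.35 ± 0.25). CD68, a lysosomal protein of macrophages, rose in all 4 resistant lines by 3.62, 3.32, 2.19 and 1.78 with an SE of 0.43, at limma adjusted p of 2.34e-05 to 0.00625. PTPRC, which all leukocytes carry, was at 1.02 and 0.991 CPM in Huh7 parental and 0.0663 and 0.0429 CPM in Huh7-IR libraries. In Huh7-CR libraries it was at 0.216 and 0.262 CPM, a change of -0.69 ± 0.11 (limma adjusted p = 0.000313). PTPRC reached 1 CPM only in Huh7 parental and DMSO libraries, so that a difference between groups was a condition of its being tested.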
